A study of Saccharomyces cerevisiae with 6 samples.

Results

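The genes described here encode the Pkc1-Slt2 MAP kinase cascade of budding yeast, from the GTPase Rho1 and its exchange factor Rom2 down to the MAP kinase Slt2, the pseudokinase Kdx1 and the transcription factor Rlm1. They were chosen by name: RHO1 (YPR165W), ROM2 (YLR371W), PKC1 (YBL105C), BCK1 (YJL095W), MKK1 (YOR231W), MKK2 (YPL140C), SLT2 (YHR030C), KDX1 (YKL161C) and RLM1 (YPL089C), which are 9 of the 5449 genes named on the array. Each had 1 probe set, and all 9 passed the filter on low values. KDX1 was matched by its identifier, because its alias MLP1 is also the standard name of another yeast gene. The 2 groups were transformants of strain BY4741 that made mammalian p110α-CAAX, the catalytic subunit of a phosphoinositide 3-kinase joined to a membrane-targeting motif, from a galactose-inducible promoter. In PI3K cultures the kinase was active, and in KD cultures it carried the kinase-dead substitution K802R, so both groups received galactose and both were induced to make the protein. Cultures in raffinose medium were given 2% galactose for 4 h, and total RNA of 3 biological replicates in each group was hybridised, 1 array for each. The sample records give the same temperature for every culture of both groups.

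The cascade is the core of the cell wall integrity pathway. Sensors in the plasma membrane recruit the exchange factors Rom1 and Rom2, these load Rho1 with GTP, and Rho1 activates the yeast protein kinase C, Pkc1. Pkc1 phosphorylates the MAP kinase kinase kinase Bck1, which activates the redundant pair Mkk1 and Mkk2, which in turn phosphorylate Slt2. Slt2 phosphorylates Rlm1, and Rlm1 drives genes of cell wall building, SLT2 itself among its known targets. The phosphoinositide that p110α uses as its substrate is one that Rom2 binds at the plasma membrane. The comparison of PI3K with KD asks at which of these levels transcripts differed with the activity of the lipid kinase.

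Each of the 6 arrays gave log2 values for 5716 probe sets, made with GCRMA (background correction by probe sequence, normalisation between arrays and a summary over the probes of a set), with array medians between 9.49 and 9.54. A value is relative within a probe set, so levels are not compared between genes, and in whole cultures a change in the number of cells of a kind and a change in RNA per cell cannot be told apart. The arrays also varied along a component that the groups did not account for, which held 70.4% of the variance after group means were removed. It set PI3K 1, PI3K 3 and KD 3 (side A) apart from PI3K 2, KD 1 and KD 2 (side B). This split was made from the tested values with group means removed, so both groups must have arrays on each side. It therefore cannot show whether a batch was shared between the groups, and no batch is given in the labels. Differences within each side are given below as a description only, not as a repeat of the comparison. Each of them rests on an unreplicated array. Of the genes that mark mating type a, the type of BY4741, the 4 examined had means of 10.64 to 12.38 in PI3K and 10.67 to 12.77 in KD. The 4 α-cell genes had means of 4.60 to 8.35 in PI3K and 5.01 to 8.44 in KD. Among these, STE3, the receptor gene for a-factor, was at 7.85, 7.56 and 8.09 in PI3K and at 6.80, 6.88 and 7.26 in KD. Its log2 difference was 0.85, while the pheromone genes MF(ALPHA)1 and MF(ALPHA)2 had -0.40 and -0.10 and the agglutinin gene SAG1 had -0.09. The a-type genes MFA2, BAR1, STE2 and MFA1 had -0.39, -0.04, 0.02 and 0.13. None of the 4 genes of either type passed over all genes in limma, and their part in the results below was not tested.

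The large positive differences lay at the bottom of the cascade. SLT2, the MAP kinase gene, rose 2.95-fold with the active kinase. KDX1 and RLM1 had log2 differences of 1.84 and 0.65 but did not pass over all genes. At the top, RHO1 had a smaller difference of 0.42, with every PI3K value above every KD value, and did not pass either. Between Rho1 and Slt2 no gene had a difference above 0.1 on the log2 scale. PKC1 and BCK1 lay below their KD values on all 3 PI3K arrays.

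**Figure D1:**
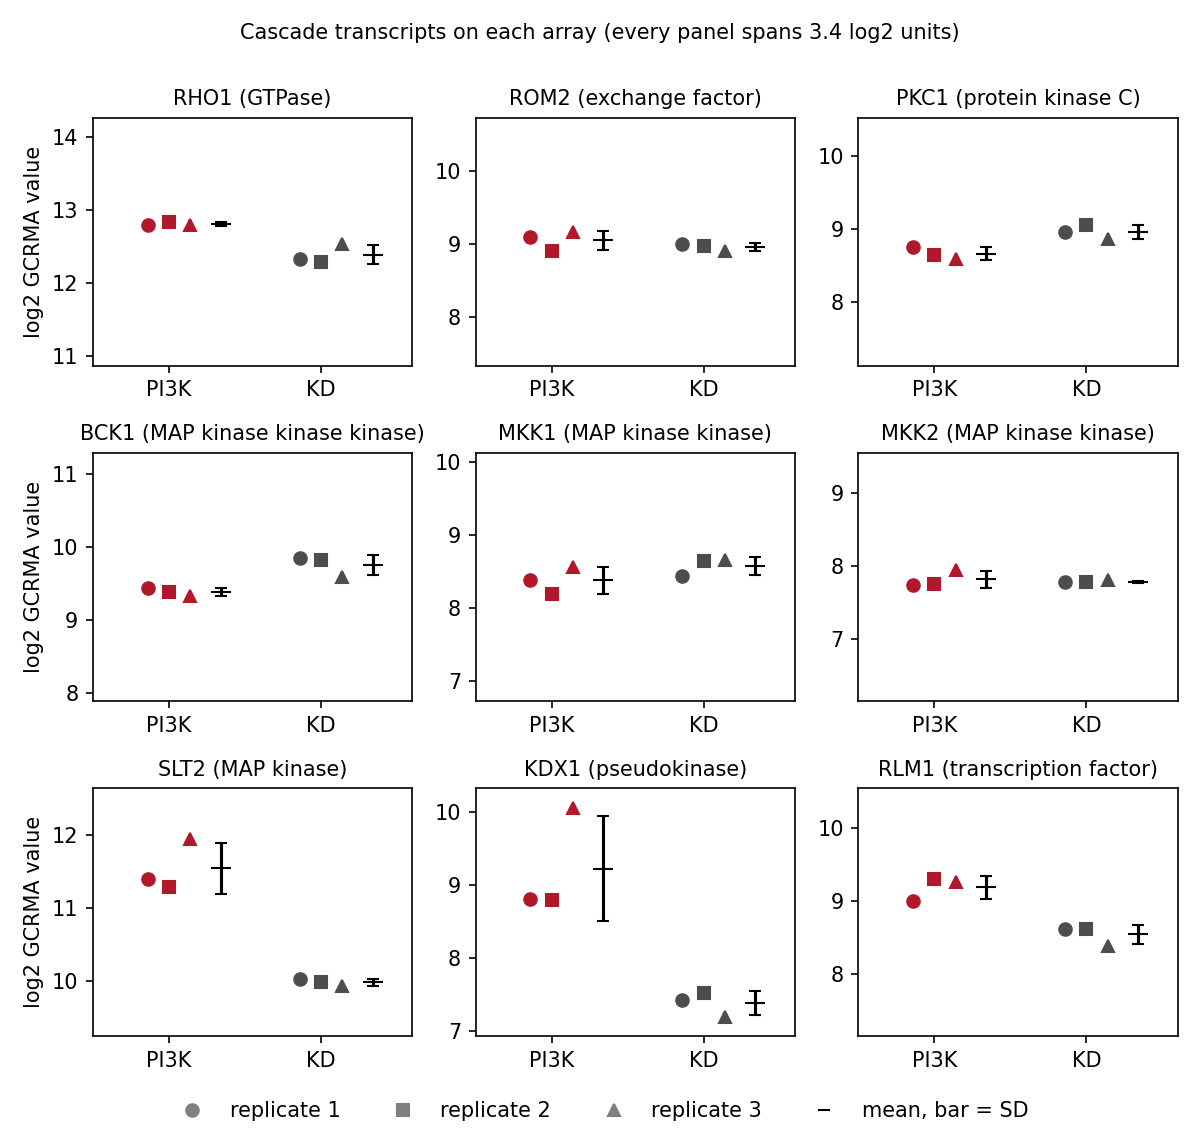
Log2 GCRMA values (y axis) of the 9 cascade genes on each of the 3 PI3K arrays (red) and 3 KD arrays (grey), with marker shapes for replicates 1 to 3 and, beside them, the mean with its SD. SLT2, KDX1, RLM1 and RHO1 had every PI3K value above every KD value, PKC1 and BCK1 had every PI3K value below, and the groups overlapped for ROM2, MKK1 and MKK2.

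At the top of the pathway, RHO1 encodes the GTPase that activates Pkc1 and is also the regulatory subunit of glucan synthase. RHO1 stood at log2 values of 12.79, 12.83 and 12.79 in PI3K, against 12.33, 12.29 and 12.53 in KD. The PI3K arrays lay within a narrow band above all KD arrays. The difference was 0.42 (SE 0.11, 95% interval 0.15 to 0.69), a 1.34-fold ratio that did not pass over all genes (limma adjusted p = 0.190). The difference was 0.26 on the side A arrays alone and 0.52 on the side B arrays.

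ROM2, the exchange factor that loads Rho1 with GTP, stood at 9.09, 8.90 and 9.16 in PI3K and at 8.999, 8.97 and 8.89 in KD. The groups overlapped, with PI3K 2 inside the KD range. The difference was 0.09 (SE 0.11, interval -0.18 to 0.37, adjusted p = 0.787), with opposite signs on the 2 sides (0.23 on A and -0.08 on B).

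PKC1 and BCK1, the first kinases after Rho1, had negative differences. PKC1, the protein kinase C of yeast, stood at 8.75, 8.64 and 8.58 in PI3K and at 8.96, 9.05 and 8.86 in KD. BCK1, the MAP kinase kinase kinase, stood at 9.44, 9.39 and 9.33 in PI3K and at 9.86, 9.82 and 9.60 in KD. For both genes the groups did not overlap, and KD 3 was the KD array nearest to PI3K. The difference was -0.30 for PKC1 (SE 0.11, interval -0.56 to -0.03) and -0.38 for BCK1 (SE 0.12, interval -0.65 to -0.10). Neither passed over all genes (adjusted p = 0.293 for PKC1 and 0.229 for BCK1), and 9.21% of all genes had a lower difference than PKC1 and 4.47% a lower one than BCK1. For PKC1 it was -0.19 on side A and -0.37 on side B, and for BCK1 -0.22 and -0.45.

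MKK1 and MKK2 encode the paired MAP kinase kinases that can stand in for each other in activating Slt2. MKK1 stood at 8.38, 8.19 and 8.55 in PI3K and at 8.43, 8.64 and 8.65 in KD. MKK2 stood at 7.74, 7.75 and 7.95 in PI3K and at 7.78, 7.77 and 7.80 in KD. The groups overlapped for both. The difference was -0.20 for MKK1 (SE 0.14, interval -0.52 to 0.12, adjusted p = 0.586) and 0.03 for MKK2 (SE 0.11, interval -0.23 to 0.29, adjusted p = 0.937). The MKK2 interval leaves out a change of 2-fold in either direction, and its sign turned in other settings (-0.04 without PI3K 3 and -0.00419 with array weights). It was 0.05 on side A and -0.03 on side B, while MKK1 was at -0.19 and -0.35.

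SLT2 encodes the MAP kinase on which the pathway converges. It stood at 11.40, 11.30 and 11.95 in PI3K, against 10.03, 9.99 and 9.94 in KD. The KD arrays lay close together, and the lowest PI3K array was 1.26 above the highest KD array. The means were 11.55 ± 0.35 in PI3K and 9.99 ± 0.05 in KD (SD, n = 3 each), with a log2 difference of 1.56 (SE 0.18, interval 1.13 to 1.99) that passed over all genes (limma adjusted p = 0.0392). It was the 11th largest difference of the 5350 genes tested, at 1.73 on side A and 1.29 on side B. Leaving out any 1 array kept the difference between 1.36 and 1.69 but ended the call. Leaving out PI3K 1, PI3K 2 or PI3K 3 gave a limma adjusted p of 0.220, 0.0839 or 0.0690. Leaving out KD 1, KD 2 or KD 3 gave one of 0.172, 0.236 or 0.0688.

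KDX1, a known Rlm1 target, is a close relative of SLT2 whose product lacks residues of an active kinase. It stood at 8.81, 8.80 and 10.06 in PI3K, against 7.43, 7.52 and 7.20 in KD. The gap between the groups, 1.28, was about that of SLT2, but PI3K 3 lay far above the other PI3K arrays. The means were 9.23 ± 0.72 in PI3K and 7.38 ± 0.17 in KD (SD, n = 3 each), a 3.59-fold ratio. The log2 difference of 1.84 (SE 0.34, interval 1.04 to 2.65) was the 7th largest of the 5350 genes and larger than that of SLT2, yet it did not pass over all genes (adjusted p = 0.116). The residual SD of KDX1 was 0.52, a spread that 4.21% of all genes exceeded. Without PI3K 3 the difference was 1.43, and it was 2.24 on side A, which holds that array, and 1.33 on side B.

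RLM1, the transcription factor that Slt2 phosphorylates, stood at 9.004, 9.30 and 9.26 in PI3K, against 8.62, 8.62 and 8.39 in KD. All PI3K arrays lay above all KD arrays, by at least 0.39. The difference was 0.65 (SE 0.13, interval 0.33 to 0.96), a 1.56-fold ratio, exceeded by 2.95% of all genes (adjusted p = 0.129). On side A this difference was 0.74 and on side B 0.68.

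**Figure D2:**
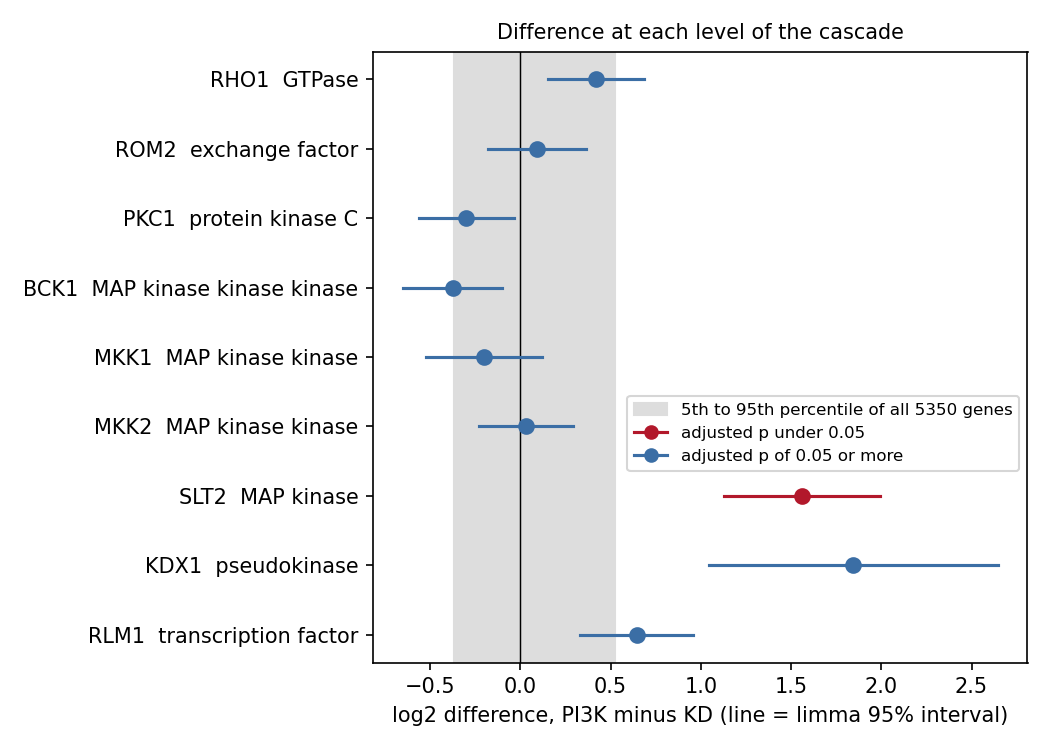
Log2 difference of PI3K minus KD (x axis) for the 9 genes in cascade order from top to bottom, with limma's 95% intervals; red marks an adjusted p under 0.05 and the grey band spans the 5th to 95th percentile of all 5350 genes (-0.37 to 0.52). SLT2 (1.56), KDX1 (1.84) and RLM1 (0.65) lay above the band, BCK1 (-0.38) lay just below it, and the other 5 lay inside it.

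By count, 1 of the 9 genes passed over all genes, SLT2, against 0.243% of the 5350 genes. It was higher in PI3K, as 0.224% of all genes were, while 0 of the 9 passed as lower, against 0.0187%. Over all genes 13 passed, 12 of them higher, and leaving out 1 array left 6 or fewer. These were 6 without KD 3, 2 without PI3K 1 or PI3K 3, 1 without PI3K 2 or KD 1, and 0 without KD 2, where limma gave 292 genes higher and 184 lower at an unadjusted p under 0.05. At an unadjusted p under 0.05, 4 of the 9 were higher (RHO1, SLT2, KDX1 and RLM1) and 2 lower (PKC1 and BCK1), against 7.94% and 6.58% of all genes. The groups lay apart for these 6 genes, against 20.7% of all genes in either direction (10.2% higher and 10.5% lower in PI3K). Of the 9 differences 6 were above 0 and 3 below, against 49.7% and 50.3% of all genes. The median log2 difference was 0.09 over the 9 genes and -0.00180 over all genes. With the replicate numbers as a block or with the array side as a covariate, KDX1 also passed (limma adjusted p = 0.0363 and 0.0478), and RLM1 passed with the side (adjusted p = 0.0251). With estimated array weights 7 of the 9 passed, in a fit that called 2808 genes. Its weights were 5.02 for PI3K 1, 5.75 for KD 2 and 0.15 to 0.97 for the other arrays. Those calls therefore rest mostly on 1 array in each group. Since the sides were found from the tested values, the p-values with that covariate are too small, by how much is unknown.

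Whether SLT2 differed from the other levels was tested on the difference between genes on each array, over 9 pairs. With 3 arrays in each group the smallest two-sided p that an exact permutation test can give is 0.1. The log2 change of SLT2 exceeded that of BCK1 by 1.94 (SE 0.24), PKC1 by 1.86 (SE 0.24) and MKK1 by 1.76 (SE 0.15). It exceeded that of MKK2 by 1.53 (SE 0.14), ROM2 by 1.47 (SE 0.15), RHO1 by 1.14 (SE 0.23) and RLM1 by 0.92 (SE 0.21). In each of these 7 pairs the PI3K arrays lay apart from the KD arrays. That gives the smallest possible exact permutation p of 0.1 (0.113 adjusted over the 9 pairs). SLT2 alone had a gap of 1.26 between the groups, and pairs of SLT2 with genes outside the cascade were not examined. The number of pairs apart is therefore not a result about the other genes. The change of SLT2 was 0.28 below that of KDX1 (SE 0.23), with overlapping groups (exact permutation p = 0.4). The change of MKK1 was 0.23 below that of MKK2 (SE 0.09), again with groups apart (exact permutation p = 0.1). No pair could pass a threshold of 0.05 in this exact test.

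Outside the cascade, the genes whose values over the 6 arrays were most like those of SLT2 were GGA1, POM33, CRG1, KTR2 and PRM5. Their Pearson r with SLT2 was from 0.989 to 0.992. These correlations are a description of 6 arrays that fall into the 2 groups, and all 5 genes had groups apart. PRM5, a membrane protein gene used as a reporter of the pathway, and CRG1, a methyltransferase gene, rose (log2 differences 2.69 and 2.58, limma adjusted p = 0.00447 and 0.0141). The call of CRG1 ended without PI3K 2, KD 1 or KD 2 (limma adjusted p = 0.0839, 0.104 and 0.109), and that of PRM5 without KD 2 (0.0532). KTR2, a mannosyltransferase gene, and GGA1, which encodes a Golgi sorting adaptor, had differences of 1.33 and 0.97 and did not pass.

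Outside the cascade, KDX1 was most like other genes, MCH5, NQM1, YNL194C, XBP1 and YPL088W, with r from 0.989 to 0.997. NQM1, a transaldolase gene, stood at 11.08, 11.17 and 12.16 in PI3K and at 9.65, 10.01 and 9.73 in KD, with PI3K 3 set apart as it was for KDX1. For KDX1 the excess of PI3K 3 over the mean of PI3K 1 and PI3K 2 was 1.25, which 0.262% of all genes exceeded, against 0.60 for SLT2, 0.11 for RLM1 and -0.02 for RHO1. RLM1 was most like ATG8, MRP8, PNC1, YPT53 and STF1 (r from 0.980 to 0.985). ATG8, the ubiquitin-like protein gene of the autophagosome, had a difference of 1.27 (adjusted p = 0.126). Cascade genes were left out of these rankings, and no other gene appeared among the 5 most like of more than 1 of these 3. The 3 were also like each other, with r of 0.98 for SLT2 and KDX1, 0.93 for SLT2 and RLM1, and 0.91 for KDX1 and RLM1.

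Among 7 other regulators of Rho1, 0 passed in limma and 1 had an unadjusted p under 0.05 (all genes: 0.243% and 14.5%). That gene was BAG7, which encodes a GTPase-activating protein, at 5.76, 5.20 and 6.39 in PI3K and at 4.33, 4.57 and 4.05 in KD, near the filter value of 4 on the KD arrays (log2 difference 1.47, SE 0.30, adjusted p = 0.126). ROM1, the paralog of ROM2, had a difference of 0.44 (adjusted p = 0.384), and RDI1, which encodes the inhibitor that extracts Rho1 from membranes, one of 0.29. TUS1, another exchange factor gene, had -0.08. The median of the 7 was 0.11, and it was 0.21 without KD 2, 0.19 without PI3K 2 and 0.06 without PI3K 1. The sensors feed the cascade from the membrane. Of the 5 listed sensor genes 0 passed in limma and 1 had an unadjusted p under 0.05, MID2 (0.53, SE 0.17, adjusted p = 0.231). MTL1, a relative of MID2, had a difference of 0.21 and WSC3 one of -0.15. WSC1, listed as SLG1 in the reference, had 0.19 with an SE of 0.56. The median of the 5 was 0.19, and it was -0.12 without KD 1, -0.08 without PI3K 3, -0.07 without KD 2 and 0.05 without PI3K 1.

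WSC4, a relative of the WSC sensors that the list does not hold, fell. It is named because of its values. WSC4 stood at 6.88, 7.01 and 6.71 in PI3K, against 8.02, 7.94 and 8.18 in KD, with the groups apart. The log2 difference was -1.18 (SE 0.13, limma adjusted p = 0.0392), at -1.39 on side A and -0.96 on side B, and it was the one gene of all 5350 to pass as lower. Leaving out any 1 array ended that call, with limma adjusted p-values from 0.0605 (without KD 3) to 0.222 (without PI3K 1).

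Among 5 kinases and partners of Pkc1 and Slt2, 4 had negative differences (all genes: 50.3%). None passed in limma and 0 had an unadjusted p under 0.05 (all genes: 0.243% and 14.5%). The median was -0.15, and without KD 2 it was 0.01, with 2 of the 5 negative. PKH2 and PKH1, kinases that phosphorylate Pkc1, had differences of -0.19 and -0.15, SPA2, the polarity scaffold that binds Mkk1, Mkk2 and Slt2, had -0.27, and SMI1, a wall synthesis regulator, had 0.14.

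Of 4 phosphatases that act on Slt2, 3 had positive differences (all genes: 49.7%). PTP2, which dephosphorylates the tyrosine of the activation loop, was at 9.75, 9.75 and 10.16 in PI3K and at 9.14, 9.24 and 8.68 in KD. MSG5, a dual-specificity phosphatase, was at 10.12, 10.09 and 10.32 in PI3K and at 9.62, 9.53 and 9.94 in KD. All PI3K values of both lay above all KD values, as did those of SDP1 and of 10.2% of all genes. The differences were 0.87 for PTP2 (SE 0.19, adjusted p = 0.151) and 0.48 for MSG5 (SE 0.15, adjusted p = 0.223), with SDP1 at 0.38 and PTP3 at -0.15. Of the 4, 0 passed in limma and 2 were higher at an unadjusted p under 0.05 (all genes: 0.224% and 7.94%).

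The other transcription factors that the pathway feeds, SWI6, SKN7 and SWI4, had negative differences (all genes: 50.3%), in all 15 alternatives too. SWI6, the partner of Swi4 and a substrate of Slt2, stood at 8.79, 9.08 and 8.71 in PI3K and at 9.37, 9.28 and 9.18 in KD. SKN7, a factor that Rho1 binds, stood at 8.81, 8.79 and 8.95 in PI3K and at 9.19, 8.98 and 9.26 in KD. The groups lay apart for both, with PI3K lower, as they did for 10.5% of all genes. The differences were -0.41 for SWI6 (SE 0.14, adjusted p = 0.247), -0.29 for SKN7 (SE 0.12, adjusted p = 0.333) and -0.35 for SWI4 (SE 0.18, adjusted p = 0.433). None of the 3 passed in limma (all genes: 0.243%). SWI6 and SKN7 had an unadjusted p under 0.05, as 6.58% of all genes did in that direction.

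Of 16 listed targets 14 were tested, all 14 had a positive difference here and in each of 15 alternatives, and the median was 0.56. PRM5 and CWP1, a cell wall mannoprotein gene, passed over all genes, and 9 had an unadjusted p under 0.05, all higher. Over all genes the shares were 49.7% above 0, 0.224% called higher and 7.94% higher at that unadjusted p. PRM5 stood at 10.95, 10.82 and 11.37 in PI3K and at 8.25, 8.37 and 8.45 in KD, 6.45-fold higher. CWP1 stood at 13.17, 13.30 and 13.40 in PI3K and at 12.37, 12.38 and 12.37 in KD, 1.88-fold higher (log2 difference 0.91, SE 0.11, adjusted p = 0.0392). PIR3, another wall protein gene, had a difference of 2.58 (SE 0.43, adjusted p = 0.112). FKS1, the glucan synthase gene that Rho1 regulates as a protein, had 0.15, and CIS3, a relative of PIR3, had 0.14. This list was written with earlier results of these data known, so its direction is not independent evidence. The number of called targets was 0 without KD 2 and 1, PRM5, without any other single array. CWP1 then had limma adjusted p-values from 0.0622 to 0.237, and PRM5 one of 0.0532 without KD 2.

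Kinases of the other MAP kinase cascades gave a comparison at the same levels. Of 9 such genes, of mating, osmotic stress and sporulation, 0 passed in limma and 1 was higher at an unadjusted p under 0.05 (all genes: 0.224% and 7.94%). Their median was 0.04, and it was 0.10, 0.12 and 0.08 without KD 1, KD 2 and KD 3 and 0.07 without PI3K 2. The MAP kinases FUS3, KSS1 and HOG1 had differences of 0.55 (SE 0.24), 0.32 (SE 0.36) and 0.25 (SE 0.18), and SMK1 had -0.12. SSK22, a MAP kinase kinase kinase of the osmotic pathway, stood at 8.70, 9.06 and 9.22 in PI3K and at 8.40, 8.47 and 8.19 in KD (log2 difference 0.64, SE 0.16, adjusted p = 0.182). The difference between these genes and SLT2 was not tested.

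**Figure D3:**
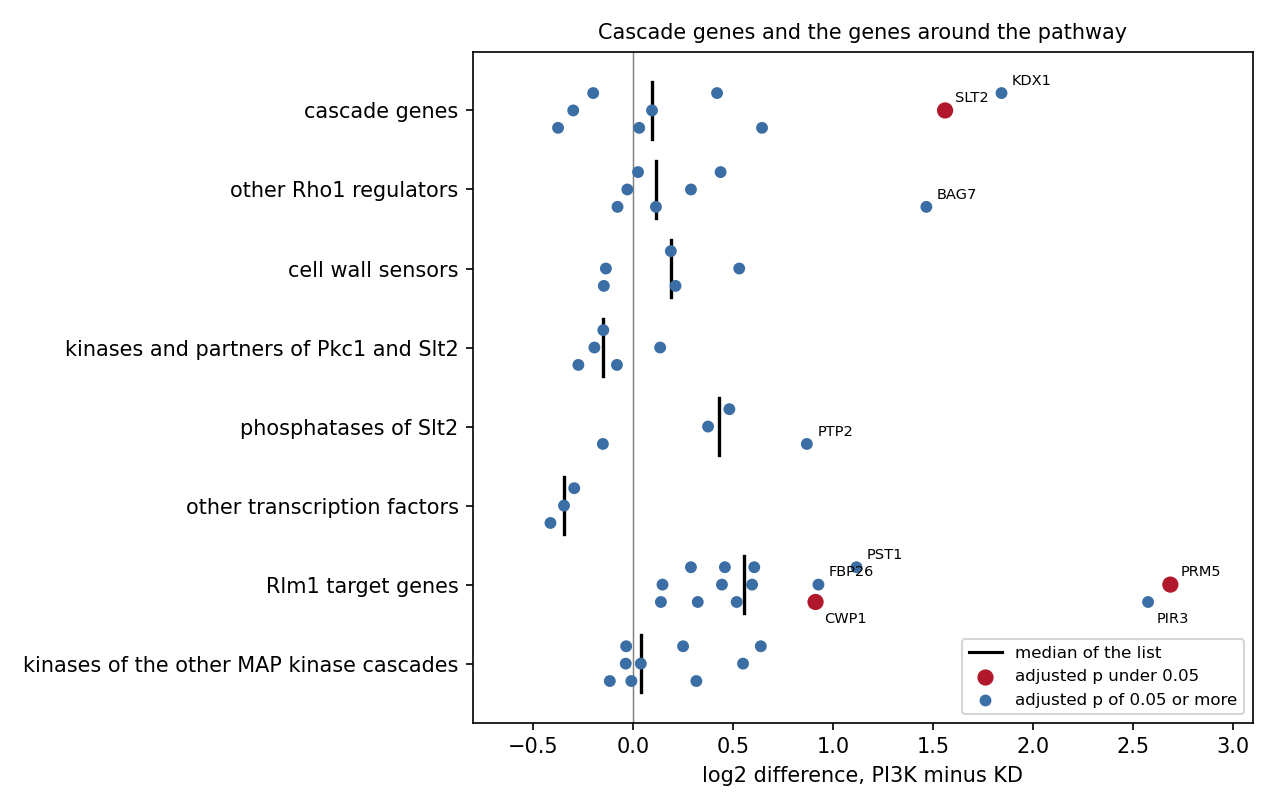
Log2 difference of PI3K minus KD (x axis) of the cascade genes and of 7 lists around the pathway, 1 point for each tested gene with vertical offsets for legibility; black bars are list medians and large red points have an adjusted p under 0.05. SLT2, PRM5 and CWP1 passed, all Rlm1 targets lay above 0, and the other transcription factors lay below 0.

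The 15 alternatives left out 1 array each or changed the filter, the scaling, the variance model, the probe set rule or the covariates. In all of them SLT2, KDX1 and RLM1 stayed above 0.4, and RHO1 lay between 0.37 and 0.50. PKC1, BCK1 and MKK1 stayed below 0 in all of them.

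**Figure D4:**
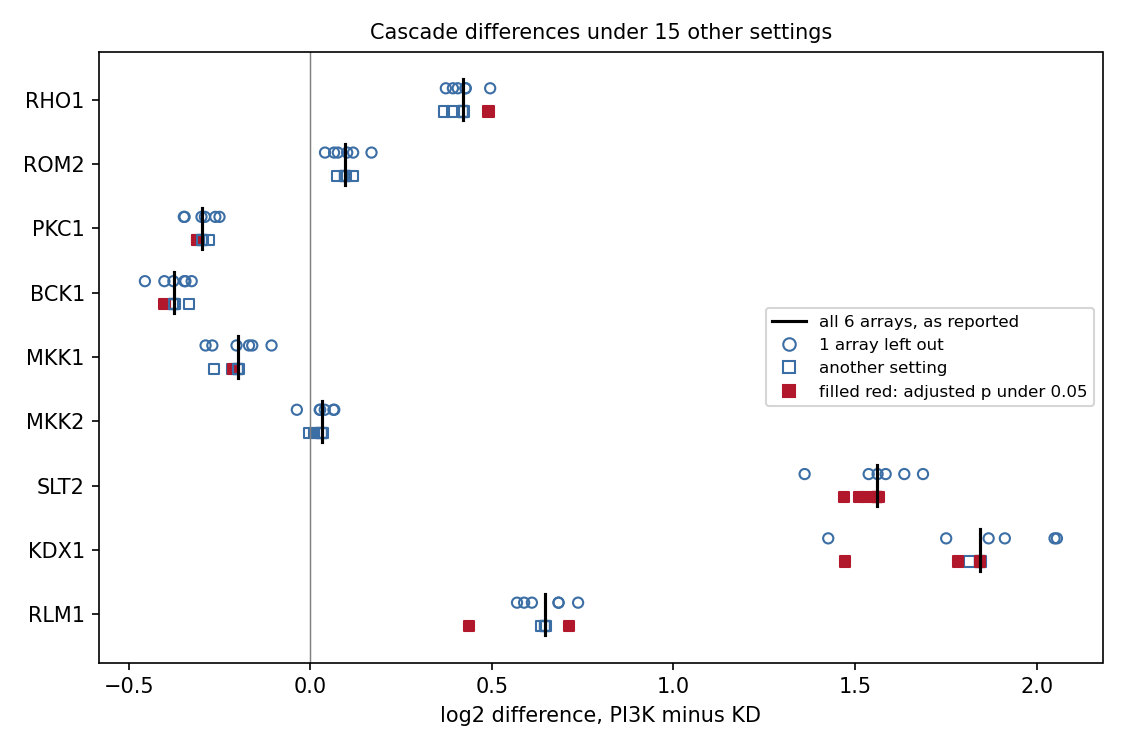
Log2 difference of PI3K minus KD (x axis) for each cascade gene with all 6 arrays (black bar), with 1 array left out (circles) and under the other 9 settings (squares); filled red symbols have an adjusted p under 0.05. SLT2 was filled in all 9 other settings and in none with an array left out, and only MKK2 had values on both sides of 0.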

How the data were processed

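Total RNA was hybridised to 1-colour Affymetrix arrays, per the labels' protocols. The values deposited by the authors come from GCRMA, per the submitters' processing notes, with no version, and are taken as log2 from their range, since no source used here gives the base. Scanner signal was not analysed here.

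Of 5716 probe sets 5498 had 1 gene, 0 several and 218 none; identifiers were matched to the R64 gene table (5498 of 5498). A gene's probe set with the highest mean was used. The 5350 of 5449 genes that reached 4 on 3 or more arrays were tested. The PI3K and KD means were set against each other with limma 3.58.1 (two-sided, lmFit, then eBayes, no block; R 4.3.3), with Benjamini-Hochberg adjustment over all 5350 genes and a threshold of 0.05. The test was tried on simulated data, and no result of that trial is given here. Gene pairs were tested by exact permutation of the 6 arrays.

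The cascade genes and the 7 lists (47 of 49 symbols tested) were chosen with earlier results of these data known. The rule for named genes takes all 9 cascade genes. From each list it takes the 3 smallest p-values in the direction of the list median, the smallest against that direction and any called member. It also takes the 5 genes outside the cascade most like SLT2, KDX1 and RLM1. Not all genes it takes are named. FKS1, CIS3, KSS1, WSC1, WSC4 and the genes that mark mating type fall outside it, as do the genes of the closing observations. Replicate numbers 1 to 3 were not taken to pair the samples: residual correlations of same-numbered arrays were -0.49, 0.48 and 0.39. Figures were drawn with matplotlib 3.10.9.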

Additional observations from a re-analysis of the deposited data

How the results depend on the processing

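Of 135 values of the 9 cascade genes under 15 alternatives, 133 kept their sign; the 2 that turned were MKK2, without PI3K 3 (-0.0371; 0.0660 was its highest value, without PI3K 1) and with array weights (-0.00419). SLT2 passed in all 9 alternatives that kept the 6 arrays, at 1.47 to 1.56, and in none that left 1 out (1.36 to 1.69). The cascade count was 0 in each of those, the count of all called genes lay between 0 and 6 (0 to 5 of them higher), against 13 (12 higher), and that of called Rlm1 targets between 0 and 1. Such fits have fewer residual degrees of freedom.

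The replicate block gave 2 cascade genes, both higher, as KDX1 (1.84) passed too, and 40 genes in all, 36 higher. The labels do not say whether the replicate numbers pair the samples, and they were not taken to. With the array side, 3 cascade genes passed, all higher, with KDX1 (1.78) and RLM1 (0.71), 1 phosphatase, 4 Rlm1 targets and 185 genes in all, 142 higher. Array weights, whose estimation stopped before convergence, were 5.02 for PI3K 1, 5.75 for KD 2 and 0.15 to 0.97 for the other arrays. With these weights 2808 genes were called, 1340 higher. These included 7 cascade genes, 4 of them higher: SLT2, RHO1 (0.49), KDX1 (1.47), RLM1 (0.44), PKC1 (-0.31), BCK1 (-0.40) and MKK1 (-0.21). They also included 2 other Rho1 regulators, 2 sensors, 3 kinases and partners, 3 phosphatases, 2 other transcription factors, 13 Rlm1 targets and 4 kinases of other cascades. The cause was not tested. The number of arrays limits each value.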

Other observations

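The genes that lie next to the cascade genes were examined after the values had been seen. YPL088W, a predicted aryl alcohol dehydrogenase gene, is the neighbour of RLM1 in the reference gene order, on the opposite strand, so that the pair is read outward from the space between them. It stood at 10.49, 10.38 and 11.46 in PI3K, against 9.03, 8.94 and 8.36 in KD, and all PI3K values lay above all KD values. Its log2 difference of 2.00 (SE 0.32, limma adjusted p = 0.112) was a 4.00-fold ratio, against 0.65 for RLM1. YDC1, the ceramidase gene beyond it, had a difference of 0.78 (SE 0.16), also with groups apart.

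PIR3 lies 2 places from KDX1 in the same order, with YKL162C between them. PIR3 stood at 11.42, 10.97 and 12.52 in PI3K, against 8.53, 9.10 and 9.55 in KD, with its highest value on PI3K 3 as for KDX1. YKL162C had a difference of 0.15 (SE 0.14) and ELF1, on the other side of KDX1, one of 0.12 (SE 0.23), both with overlapping groups. The neighbours of SLT2 were YHI9 at 0.25 (SE 0.12) and RRM3, a DNA helicase gene, at -0.50 (SE 0.13). Of the 17 tested genes next to a cascade gene, 0 passed in limma, against 0.243% of all genes, and 7 had groups apart, against 20.7%. Besides YPL088W, YHI9 and RRM3 these were ARC18 (0.47) beside ROM2, SRO77 (-0.48) and SEA4 (-0.22) beside PKC1, and FRK1 (-0.41) beside MKK2.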
